A study of Mus musculus with 7 samples.

Results

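Transforming growth factor-β (TGF-β) signaling was examined through 10 genes in splenic CD4+CD25+ cells of aged and young mice: Tgfb1, Lrrc32, Tgfbr1, Tgfbr2, Tgfbr3, Smad2, Smad3, Smad4, Smad7 and Ski. They were chosen by symbol, for their place in ligand presentation, reception and Smad signaling, out of the 25469 genes of the deposited table, and all 10 were found in it. CD4+CD25+ splenocytes, a fraction rich in regulatory T cells (Tregs), were isolated with magnetic beads from wild-type (WT) mice, which the methods of the study give as male C57BL/6. Aged mice were 18 months old (n = 3) and young mice were 8 weeks old by the sample labels (n = 4), while the methods of the study give the young mice another age. Each library was labelled a biological replicate, and whether cells of several mice were pooled is not given in the sources used here.

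TGF-β1 is made as an inactive complex with its own propeptide. On Tregs this latent complex is held at the cell surface by GARP, the protein of Lrrc32, and it is freed there by integrins. Active TGF-β binds a type II receptor, which phosphorylates a type I receptor, which in turn phosphorylates Smad2 and Smad3. With Smad4 these enter the nucleus, while Smad7 and Ski hold the signal back. The pathway is known for inducing Foxp3 in peripheral T cells, for restraining effector T cells and for inducing the integrin αE (CD103) on tissue-homing lymphocytes.

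In aged Tregs, mRNA of the ligand and of its surface anchor was lower, as was that of both signaling receptors, of Smad2 and of both inhibitors. Tgfb1 stood at 0.604 and Lrrc32 at 0.492 of the mean level in young Tregs. Smad3 and the co-receptor Tgfbr3 showed no detectable difference, and Smad4 missed the threshold. Of the 10 genes, 7 were called lower in aged Tregs (Benjamini-Hochberg adjusted p-value under 0.05 in edgeR's quasi-likelihood test over 13904 genes), 0 were called higher and 3 were not called. Of all genes tested, 16.7% were called in either direction, 6.94% lower and 9.8% higher. All 10 estimates were below 0, so that 0 were higher at an unadjusted p under 0.05 as well, and DESeq2 and limma voom also called 0 higher. The median log2 fold change (aged minus young) of the 10 genes was −0.47, beside 0.02 over all genes tested and −0.07 over the 5705 genes that averaged at least 5 log2 CPM (CPM are counts scaled to library size).

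The 5′ flanking sequence of 4 of the genes is shown because their calls differ: Tgfb1, Tgfbr1 and Tgfbr2 were called lower in aged Tregs and Smad3 was not called. The sequences are the 250 bases before the RefSeq start on GRCm38.p6, written 5′ to 3′ on the strand of the gene. Capitals mark the GC box core GGGCGG or, on the other strand, CCGCCC, the letters bound by Sp1 family factors. The windows are chr7:25686752-25687001 (plus strand) for Tgfb1, chr4:47352972-47353221 (plus strand) for Tgfbr1, chr9:116175364-116175613 (minus strand) for Tgfbr2 and chr9:63757995-63758244 (minus strand) for Smad3.
Tgfb1: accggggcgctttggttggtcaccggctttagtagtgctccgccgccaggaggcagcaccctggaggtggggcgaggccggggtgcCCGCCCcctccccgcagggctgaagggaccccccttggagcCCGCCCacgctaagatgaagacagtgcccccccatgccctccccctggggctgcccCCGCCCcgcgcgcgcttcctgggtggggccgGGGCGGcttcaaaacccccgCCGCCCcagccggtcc
Tgfbr1: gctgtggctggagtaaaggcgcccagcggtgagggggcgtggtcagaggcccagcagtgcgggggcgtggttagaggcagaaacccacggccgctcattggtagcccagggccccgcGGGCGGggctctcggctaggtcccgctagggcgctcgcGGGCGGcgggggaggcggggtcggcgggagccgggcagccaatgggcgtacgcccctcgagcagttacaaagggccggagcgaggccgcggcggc
Tgfbr2: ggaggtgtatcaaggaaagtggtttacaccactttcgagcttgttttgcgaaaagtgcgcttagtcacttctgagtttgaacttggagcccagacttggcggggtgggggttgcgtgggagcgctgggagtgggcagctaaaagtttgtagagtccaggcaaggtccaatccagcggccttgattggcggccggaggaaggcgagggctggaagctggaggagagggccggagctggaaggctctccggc
Smad3: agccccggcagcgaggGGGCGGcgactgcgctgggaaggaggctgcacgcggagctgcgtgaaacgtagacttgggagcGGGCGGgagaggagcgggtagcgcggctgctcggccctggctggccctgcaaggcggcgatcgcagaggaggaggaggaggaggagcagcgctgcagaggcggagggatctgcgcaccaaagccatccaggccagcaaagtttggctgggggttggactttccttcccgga

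The Tgfb1 window held 5 matches of the GC box core, that of Tgfbr1 2, that of Smad3 2 and that of Tgfbr2 0. Among all 32851 windows of the table, 32.7% held at least 1 match, 16.7% at least 2 and 1.93% at least 5. Ski, with 5 matches in its window, was lower in aged Tregs too. A second RefSeq start of Tgfbr1 had 0 matches. A match is a description of letters and not a binding site. The core of the Smad-binding CAGA box (CAGACA or TGTCTG, in 17.1% of all windows) was found in the second Tgfbr1 window and in none of the others. Neither the forkhead core TGTTTAC (or GTAAACA, in 3.2% of windows) nor the Runx core TGTGGT (or ACCACA, in 14.0%) was found in the windows of the 5 genes matched. Lrrc32, Tgfbr3, Smad2, Smad4 and Smad7 were not included in this search.

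**Figure D1:**
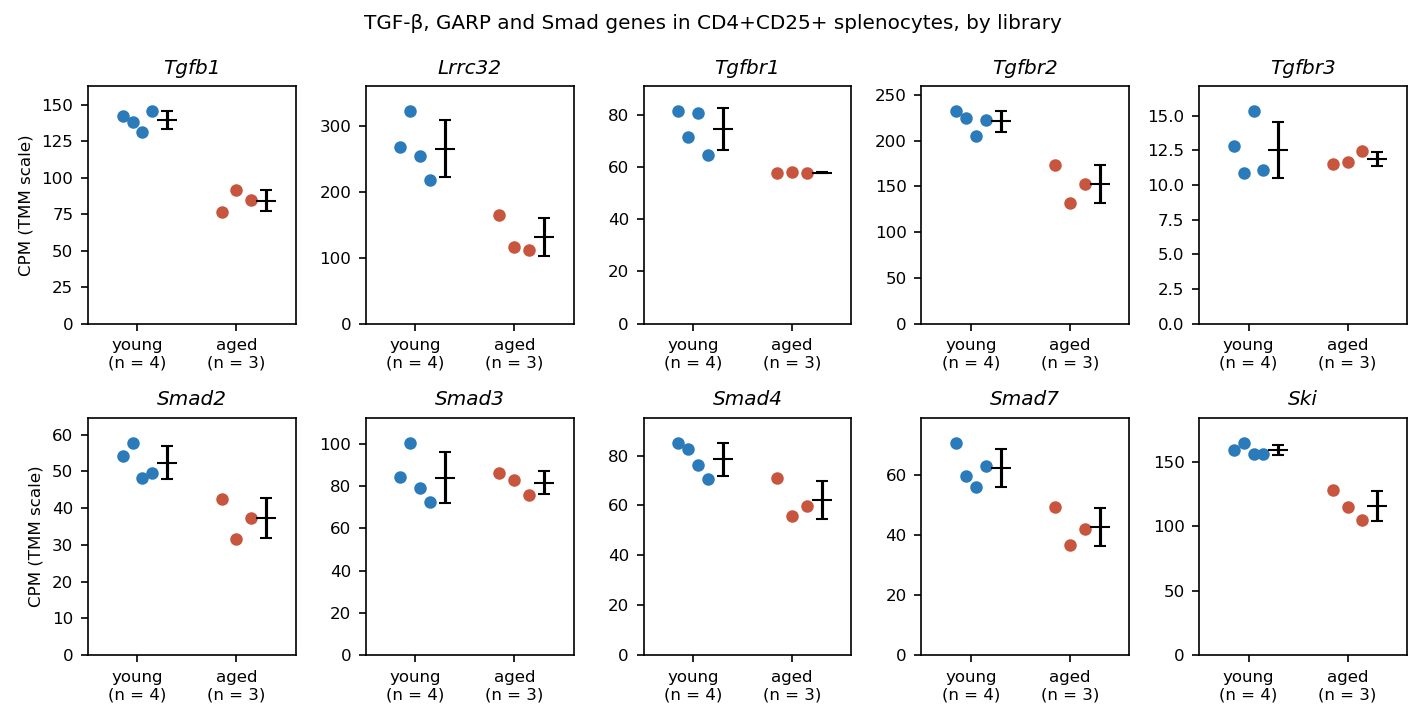
Each panel shows 1 gene, with its level in CPM (counts scaled to library size, with TMM factors) on the vertical axis from 0. Points are libraries (blue, 4 young; red, 3 aged) and bars are mean ± SD. In 7 panels all aged libraries lie below all young ones; the ages overlap for Tgfbr3, Smad3 and Smad4.

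Levels are given in CPM on this scale, as mean ± SD over libraries. Tgfb1 (ENSMUSG00000002603, chr7:25687002-25705077, GRCm38) encodes the TGF-β1 ligand. Its level was 142, 138, 132 and 146 CPM in the young libraries and 76.7, 91.4 and 84.7 CPM in the aged ones. Every aged library was below every young one, and the spread within each age was smaller than the distance between them. The mean was 139.5 ± 6.03 CPM (SD, n = 4) for young and 84.3 ± 7.32 CPM (n = 3) for aged libraries, which gave a log2 fold change of −0.73 (SE 0.0945, 95% interval −0.94 to −0.51, edgeR adjusted p = 0.00241).

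Lrrc32 (ENSMUSG00000090958, chr7:98489283-98502181) encodes GARP. It reached 268, 323, 256 and 218 CPM in young Tregs and 164, 116 and 112 CPM in aged Tregs. The highest aged library, replicate 1, was still below the lowest young one. With means of 131 ± 29.0 CPM and 266 ± 43.4 CPM, its log2 fold change of −1.02 was the lowest of the 10 genes (SE 0.181, 95% interval −1.43 to −0.61, edgeR adjusted p = 0.0083). Tgfb1 and Lrrc32 were called whichever of the 7 libraries was left out and in each of 13 other alternatives of tool, scaling or filter. With the replicate number as a block neither was called, at log2 fold changes of −0.71 and −1.12 (edgeR adjusted p = 0.0584 and 0.0553). The ratio of Tgfb1 to Lrrc32 counts within a library was 0.467, 0.786 and 0.753 in aged and 0.531, 0.429, 0.515 and 0.668 in young Tregs. These ratios overlapped, with a mean log2 difference of 0.30 (two-sided exact permutation p = 0.286, 0.286 when adjusted over 5 ratios tested).

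In bulk RNA, fewer cells of a type and less RNA per cell cannot be told apart, here and in the results that follow. Foxp3, the transcription factor that defines Tregs, was at 515 ± 93.1 CPM in aged and 445 ± 61.7 CPM in young Tregs, with a log2 fold change of 0.21 (edgeR adjusted p = 0.409). With libraries scaled to Foxp3 counts instead, Tgfb1 was lower by a log2 fold change of −0.92 and Lrrc32 of −1.24, and both were called. Tgfbr1 was not called on that scale, at a log2 fold change of −0.56 (adjusted p = 0.0824), nor without a filter on low counts (−0.39, adjusted p = 0.0581).

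The signaling receptors were both lower in aged Tregs. Tgfbr2 (ENSMUSG00000032440, chr9:116084293-116175360) encodes the type II receptor, which binds the ligand first. Its level was 232, 225, 205 and 223 CPM in young and 174, 132 and 152 CPM in aged libraries, with no overlap between the ages. The means of 221 ± 11.7 and 153 ± 20.8 CPM differed by a log2 fold change of −0.53 (SE 0.115, 95% interval −0.80 to −0.27, edgeR adjusted p = 0.0177). The call was lost when aged replicate 3, young replicate 1 or young replicate 4 was left out (adjusted p = 0.0626, 0.0534 and 0.0531).

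Tgfbr1 (ENSMUSG00000007613, chr4:47353222-47414931) encodes the type I receptor, the kinase that phosphorylates Smad2 and Smad3. It stood at 81.2, 71.6, 80.6 and 64.7 CPM in young and at 57.8, 58.0 and 57.5 CPM in aged libraries. The 3 aged libraries lay close together (SD 0.233 CPM) below the lowest young library. The log2 fold change was −0.37 (SE 0.102, 95% interval −0.60 to −0.13), and its adjusted p in edgeR was 0.0419. Of the 7 fits that left out a library, the gene was called only without young replicate 4, and the adjusted p ranged from 0.0383 to 0.11. The ratio of Tgfbr2 to Tgfbr1 counts was 3.00, 2.28 and 2.64 in aged and 2.86, 3.14, 2.54 and 3.44 in young Tregs, with overlap (log2 difference −0.18, exact permutation p = 0.286, adjusted over the 5 ratios 0.286).

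Tgfbr3 (ENSMUSG00000029287, chr5:107106570-107289629), the co-receptor betaglycan that presents ligand to the type II receptor, was the least abundant of the 10 genes. Its level was 12.8, 10.8, 15.3 and 11.1 CPM in young and 11.5, 11.7 and 12.4 CPM in aged libraries, and all aged values lay within the young range. The log2 fold change was −0.08 with a 95% interval of −0.43 to 0.28 (edgeR adjusted p = 0.784), an interval that includes a fall the size of that of Tgfbr1. Its lowest count was 116 reads. Of its exon length, 4.54% is shared with Gm43422, and reads there cannot be assigned to either gene without strand.

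Of the receptor-regulated Smads, Smad2 was called lower and Smad3 was not called. The test of their ratio could not pass the threshold with this number of libraries. Smad2 (ENSMUSG00000024563, chr18:76241580-76310963) was at 54.2, 57.8, 48.2 and 49.6 CPM in young and at 42.6, 31.7 and 37.5 CPM in aged libraries. No aged library reached the young range, and the log2 fold change was −0.49 (SE 0.123, 95% interval −0.77 to −0.21, edgeR adjusted p = 0.0293). Among the fits without 1 library, this call was kept only without aged replicate 1, with adjusted p-values of 0.0133 to 0.0817.

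Smad3 (ENSMUSG00000032402, chr9:63646767-63757994), the other receptor-regulated Smad of this pathway and the one that binds DNA directly, was at 84.1, 100.4, 78.9 and 72.4 CPM in young and at 86.2, 83.0 and 75.8 CPM in aged libraries. The aged values lay within the young range. The log2 fold change was −0.04 with a 95% interval of −0.32 to 0.24 (edgeR adjusted p = 0.858), and the gene was called in none of the 22 alternatives. The ratio of Smad3 to Smad2 counts was 2.02, 2.62 and 2.02 in aged libraries and 1.55, 1.74, 1.64 and 1.46 in young ones, so that every aged ratio was above every young ratio. The log2 difference of 0.47 had an exact permutation p of 0.0571, the smallest that 3 against 4 libraries allow, and of 0.143 when adjusted over the 5 ratios, which did not pass the threshold.

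Smad4 (ENSMUSG00000024515, chr18:73639009-73703780) encodes the common Smad, with which Smad2 and Smad3 enter the nucleus. Its level was 85.1, 82.7, 76.1 and 70.4 CPM in young and 70.9, 55.9 and 59.7 CPM in aged libraries. Aged replicate 1 was just above young replicate 4, and the other aged libraries were below all young ones. The log2 fold change was −0.34 (SE 0.113, 95% interval −0.60 to −0.08), and the adjusted p of 0.0757 in edgeR missed the threshold. It was called by DESeq2 (adjusted p = 0.0158) and by edgeR without aged replicate 1 (adjusted p = 0.0239), and over all 22 alternatives the adjusted p ranged up to 0.196.

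Both inhibitors were lower in aged Tregs. Smad7 (ENSMUSG00000025880, chr18:75367529-75395935), which blocks the type I receptor and is itself induced by TGF-β, was at 70.6, 59.7, 56.0 and 62.8 CPM in young and 49.3, 36.5 and 41.8 CPM in aged libraries. The groups did not overlap, and the log2 fold change was −0.55 (SE 0.127, 95% interval −0.84 to −0.26, edgeR adjusted p = 0.0224). The call was lost without aged replicate 2 or 3 or young replicate 1 or 4 (adjusted p = 0.0594, 0.0779, 0.0645 and 0.0623). Relative to Smad3 counts, Smad7 counts were 0.572, 0.440 and 0.553 in aged and 0.839, 0.595, 0.709 and 0.868 in young libraries. These ratios did not overlap either (log2 difference −0.52, exact permutation p = 0.0571, adjusted over the 5 ratios 0.143). Here too the unadjusted p was the smallest that 3 against 4 libraries allow.

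Ski (ENSMUSG00000029050, chr4:155154075-155222592), a nuclear co-repressor that binds Smads at target genes, was at 159, 165, 156 and 156 CPM in young and at 128, 115 and 105 CPM in aged libraries. The young libraries lay close together (SD 4.03 CPM), and all aged libraries were lower. The log2 fold change was −0.46 (SE 0.0959, 95% interval −0.67 to −0.24, edgeR adjusted p = 0.016), and leaving out aged replicate 3 alone ended the call (adjusted p = 0.0599). The ratio of Ski to Smad4 counts was 1.81, 2.05 and 1.76 in aged and 1.87, 1.99, 2.05 and 2.21 in young Tregs (log2 difference −0.12, exact permutation p = 0.171, adjusted over the 5 ratios 0.286).

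**Figure D2:**
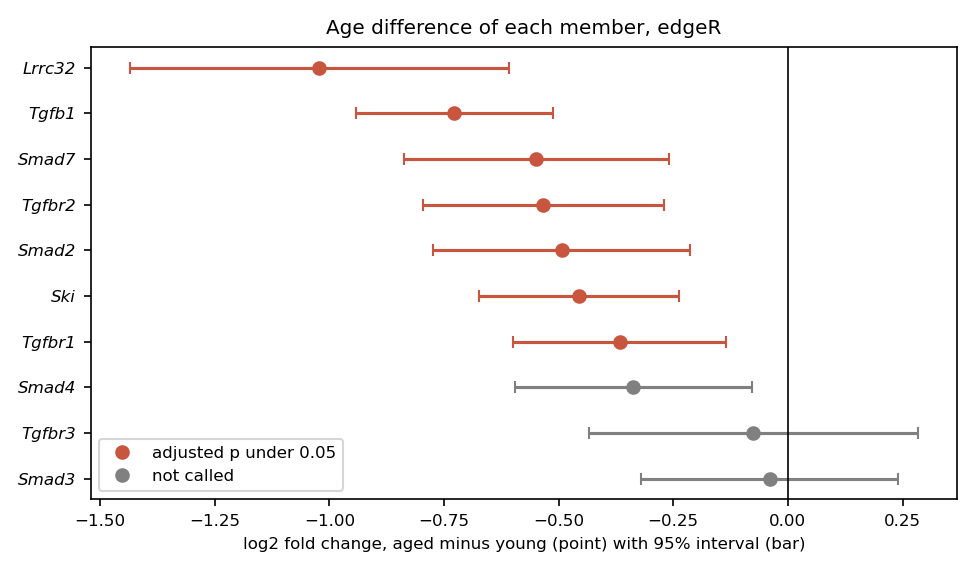
Points are log2 fold changes (aged minus young) of the 10 genes from edgeR and bars are 95% intervals; red marks an adjusted p under 0.05 and gray marks genes not called. Lrrc32 has the lowest value, −1.02, and the intervals of Tgfbr3 and Smad3 cross 0.

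Between them, 7 of the 10 genes had levels in the aged libraries that did not overlap those in the young ones, all 7 lower, beside 29.9% of all genes tested without overlap and 14.4% without overlap and lower. Within the aged group, replicate 1 had the highest level of 7 of the 10 genes, and it was also the library with the highest mitochondrial share of counts (10.7%) and the highest summed level of neutrophil markers. Without it, 7 of the 10 genes were again called lower, with Smad4 called and Tgfbr1 not. The number called was 4 without aged replicate 2, 2 without aged replicate 3, 3 without young replicate 1 and 4 without young replicate 4. Without aged replicate 3 the genes called were Tgfb1 and Lrrc32.

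**Figure D3:**
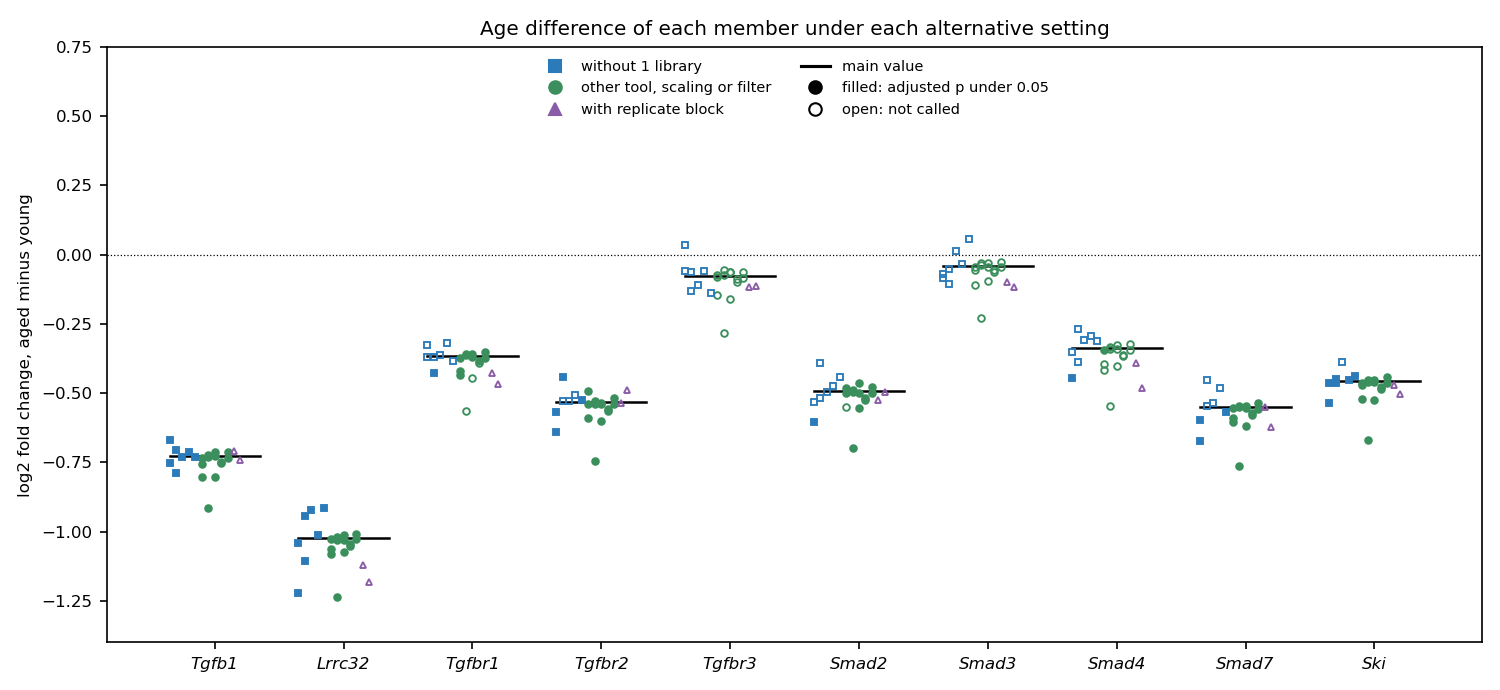
The vertical axis is the log2 fold change (aged minus young) of each gene under every alternative; black lines are the main values, squares leave out 1 library, circles change the tool, scaling or filter, and triangles include the replicate number as a block. Filled symbols have an adjusted p under 0.05. Tgfb1 and Lrrc32 are filled in all squares and circles and open in the triangles, and the points of Smad3 and Tgfbr3 lie near 0 and are all open.

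The order of the genes was compared per kilobase of exon (CPM per kb over all annotated exons of the gene), since counts grow with transcript length. In young Tregs Lrrc32 was highest, at 56.8 ± 9.26 CPM per kb. Ski (28.6), Tgfb1 (27.7) and Tgfbr2 (27.0 CPM per kb) followed and overlapped their neighbors in the order. Smad4 came next at 21.2 CPM per kb, followed by Smad3 (15.1), Smad7 (13.8) and Tgfbr1 (11.4), which overlapped in turn. Smad2 (5.97) and Tgfbr3 (1.91 CPM per kb) were below all others and apart from each other. In aged Tregs Lrrc32 still led, at 27.9 ± 6.18 CPM per kb, and Ski (20.9), Tgfbr2 (18.7), Smad4 (16.7), Tgfb1 (16.7) and Smad3 (14.7) formed a run in which each overlapped the next. The place of Tgfb1 depended on the length used, since its exons together span 5042 bases and its longest transcript 2573. On the length of the longest transcript, Tgfb1 was at 54.2 CPM per kb in young and 32.8 CPM per kb in aged Tregs, and it overlapped Lrrc32 in both ages. On that length Lrrc32 was at 58.1 and 28.6 CPM per kb, so that Tgfb1 and not Lrrc32 had the highest mean in aged Tregs.

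The other genes of the pathway were read from lists by role. Of 75 symbols besides the 10 genes (Ctgf and Ccn2 name the same gene), 65 were tested, of which 8 were higher, 4 were lower and 53 were not called, with a median log2 fold change of 0.00. These counts, and those of the lists by role that follow, stand beside 9.8% of all genes tested called higher and 6.94% called lower, and over the 65 genes together the shares called were close to that background. The 10 members themselves thus had a lower median than the rest of the pathway in these libraries, as a description without a test. Members and lists were chosen with earlier results of these data known, and the lists also hold genes at low counts, such as Ltbp3 and Ltbp4.

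**Figure D4:**
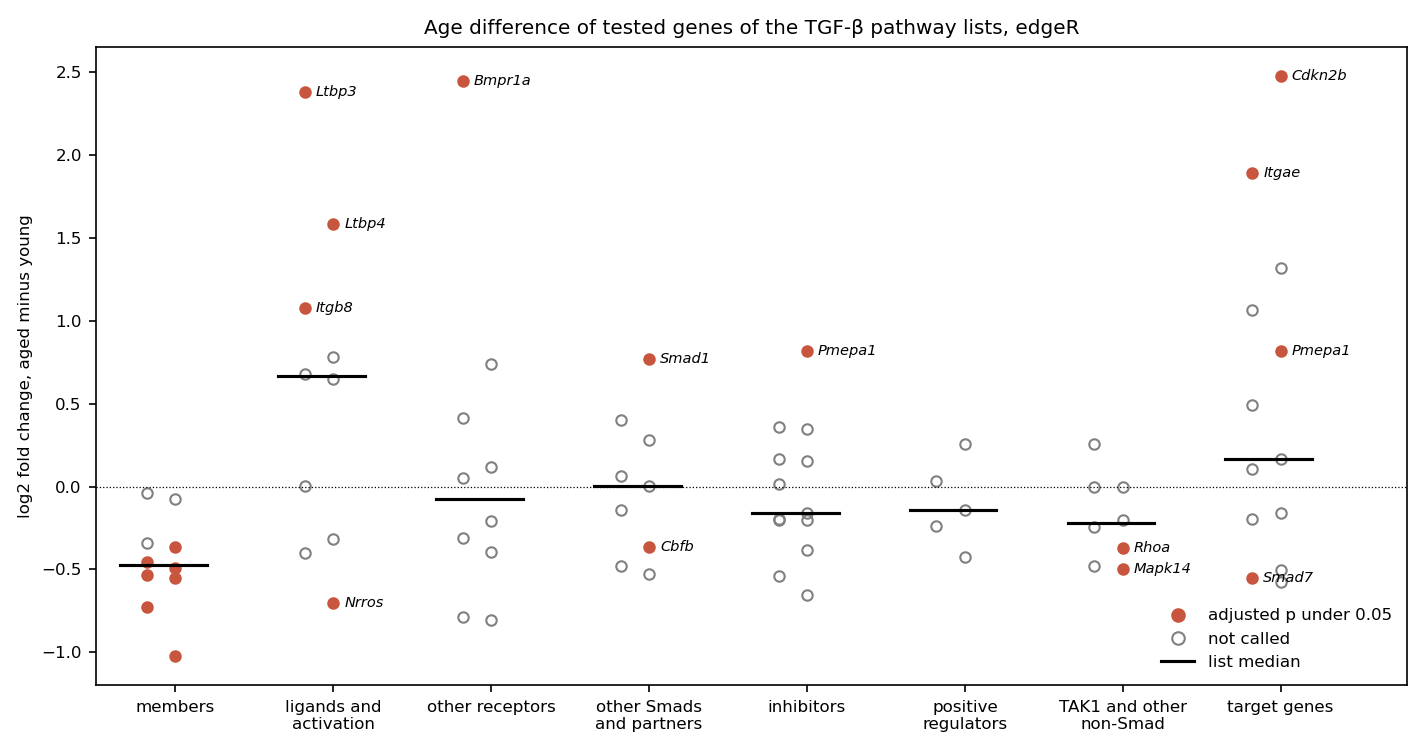
Each point is the log2 fold change (aged minus young) of a tested gene in the list named on the horizontal axis, red where the adjusted p was under 0.05. Black lines are list medians, from −0.47 for the 10 members to 0.67 for ligands and activation; Smad7, Pmepa1 and the inhibitor Skil also stand in the target list.

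Among 10 tested genes of ligand handling and activation, 3 were higher and 1 was lower (median log2 fold change 0.67). Nrros, which anchors latent TGF-β1 on myeloid cells, fell by 0.70 on the log2 scale, from 113 ± 9.18 to 69.6 ± 6.19 CPM (edgeR adjusted p = 0.00405), and was called whichever library was left out. Itgb8, the β chain of the integrin αvβ8 that frees TGF-β1 from GARP, was higher at 54.3 ± 18.0 CPM in aged against 25.7 ± 6.53 CPM in young Tregs (log2 fold change 1.08, adjusted p = 0.0306), a call kept in 2 of the 7 fits without a library. Ltbp3 and Ltbp4, which tether latent TGF-β to the matrix, were higher by log2 fold changes of 2.38 (adjusted p = 0.00169) and 1.58 (adjusted p = 0.0443) at low counts of 4 to 31 and 10 to 65 reads, and Ltbp4 was called in 1 of the 7. Furin, the protease that cleaves the TGF-β1 precursor, had a log2 fold change of −0.32 that was not called (adjusted p = 0.166).

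Of 10 other tested receptors and co-receptors, Bmpr1a, a type I receptor for bone morphogenetic proteins (BMPs), was called higher and 0 were called lower by edgeR. At an unadjusted p under 0.05 edgeR had 2 higher and 0 lower, DESeq2 called 2 higher and limma voom 1. Bmpr1a was at 16.9, 14.1 and 15.2 CPM in aged and 3.93, 3.43, 2.21 and 1.79 CPM in young libraries (log2 fold change 2.44, SE 0.265, edgeR adjusted p = 0.00125). All aged values were above all young ones, and the gene was called whichever library was left out and in each of the 13 other alternatives. Of its exon length, 4.57% is shared with Gm17110. Nrp1, a co-receptor that marks thymus-derived Tregs and binds TGF-β1, was at 173 ± 9.09 and 166 ± 31.5 CPM and was not called.

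Among 9 tested Smads and partners, Smad1, a Smad of BMP signaling, was higher at 16.5 ± 0.963 against 9.69 ± 1.37 CPM (log2 fold change 0.77, edgeR adjusted p = 0.0106). Its call was kept in 12 of 13 other alternatives of tool, scaling or filter and was lost with libraries scaled to Foxp3 counts. Cbfb, the partner of Runx factors, was lower by a log2 fold change of −0.36 (adjusted p = 0.0431), a call kept in 1 of the 7 fits without a library. The co-activator Ep300 had a log2 fold change of −0.53 and was not called (adjusted p = 0.0658).

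Of 13 further inhibitors, 1 was called higher and 0 were called lower by edgeR. At an unadjusted p under 0.05 edgeR had 2 higher and 3 lower, while DESeq2 called 3 lower and limma voom 1 lower. The gene called higher by edgeR was Pmepa1, a TGF-β target that sequesters receptor-regulated Smads, at 26.9 ± 3.60 against 15.2 ± 1.47 CPM (log2 fold change 0.82, edgeR adjusted p = 0.00604). This call was kept in 12 of 13 other alternatives of tool, scaling or filter and was lost with libraries scaled to Foxp3 counts. Pmepa1 moved in the opposite direction to Smad7, also an induced inhibitor. Wwp2, a ubiquitin ligase, was the most abundant inhibitor not called (135 ± 24.3 and 133 ± 16.1 CPM). Of 5 positive regulators tested, 0 were called in edgeR, 2 were lower and 0 higher at an unadjusted p under 0.05, and DESeq2 called 1 lower. Among the symbols of that list, Trap1 names a mitochondrial chaperone. Usp15, a deubiquitinase of the receptor, was at 193 ± 90.7 and 162 ± 49.3 CPM.

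Among genes of the kinase TAK1 and of other branches that do not use Smads, 2 of 8 genes were lower and 0 higher (0 also at an unadjusted p under 0.05, and by DESeq2 and limma voom). Mapk14, the p38α kinase, was at 97.8 ± 4.19 in aged and 138 ± 1.29 CPM in young Tregs (log2 fold change −0.50, edgeR adjusted p = 0.00559) and was called whichever library was left out. Rhoa, a small GTPase of a branch apart from TAK1, had a log2 fold change of −0.37 (adjusted p = 0.0259), a call kept in 3 of the 7 fits, and shares 4.75% of its exon length with Gm37401 and Tcta. Tab2, an adaptor of TAK1, was at 217 ± 8.18 and 218 ± 15.4 CPM.

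The known target genes of TGF-β did not move as a block: of 13 tested, 3 were higher, 1 was lower and 9 were not called (median log2 fold change 0.16). Itgae, which encodes the integrin αE (CD103), was at 174, 165 and 201 CPM in aged and at 56.4, 57.6, 46.7 and 33.4 CPM in young libraries. The lowest aged library was above the highest young one by more than the range of either group, with a log2 fold change of 1.89 (SE 0.185, 95% interval 1.47 to 2.31, edgeR adjusted p = 0.000898), and the same alternatives left it called. Cdkn2b, a cell cycle inhibitor, was higher by a log2 fold change of 2.48 (adjusted p = 0.0131) at counts of 1 to 25 reads, and this call did not hold without aged replicate 3 (adjusted p = 0.0566). Pmepa1 was the third gene higher and Smad7 the gene lower, with the values above. Junb, the most abundant target not called, ranged from 208 to 633 CPM in aged and from 315 to 718 CPM in young libraries, and shares 7.52% of its exon length with Prdx2.

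The label of the cells was checked against marker genes. Besides Foxp3, Cd4 was at 440 ± 6.33 and 544 ± 62.0 CPM (edgeR adjusted p = 0.117), Il2ra, which encodes CD25, at 380 ± 86.8 and 578 ± 94.1 CPM (adjusted p = 0.0588), and Cd3e at 307 ± 40.2 and 223 ± 13.1 CPM (adjusted p = 0.0301). The summed level of 10 Treg markers was 3239 to 3681 CPM in aged and 2362 to 3896 CPM in young libraries. Of the 10, 1 (Gpr83) was called lower and 0 higher, and 8 had positive log2 fold changes (4 higher and 2 lower at an unadjusted p under 0.05 in edgeR). The sum of the T cell markers is given next. For 12 T cell markers it was 3757 to 3971 CPM in aged and 3400 to 4435 CPM in young libraries, with 1 higher (Cd3e) and 1 lower (Cd5). Scaled to T cell markers, Tgfb1, Lrrc32, Tgfbr2, Smad2, Smad7 and Ski were called lower, and Tgfbr1 was not, with a log2 fold change of −0.44 that was no smaller in size (adjusted p = 0.094).

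Other cells of the spleen also express TGF-β genes, and some of their markers moved with age. Platelets carry both TGF-β1 and GARP. The summed level of 11 platelet markers was 62.5 to 79.4 CPM in aged and 66.4 to 82.6 CPM in young libraries; of 8 tested, 2 were higher (Ppbp, Treml1) and 1 was lower (Itgb3), and the platelet chemokine Pf4 was at 1.81 to 5.51 and 0.960 to 3.23 CPM. The sum was carried by Itgb3 (32.4 CPM in aged and 58.1 CPM in young Tregs), while 7 of the 8 had positive log2 fold changes (median 0.81). Without Itgb3, a choice made after the values were seen, the sums were 28.1 to 51.3 CPM in aged and 12.0 to 21.8 CPM in young libraries and did not overlap. Macrophage markers, from cells that make TGF-β1 and NRROS, summed to 419 to 579 CPM in aged and 553 to 640 CPM in young libraries, with 4 of 10 lower (Csf1r, Adgre1, Mrc1, Vcam1) and 1 higher (Cd14), and Csf1r was at 42.6 ± 10.8 and 92.6 ± 3.29 CPM (log2 fold change −1.12, edgeR adjusted p = 0.0031). NK cell markers summed to 36.2 to 49.6 and 52.0 to 82.5 CPM (2 of 6 lower, Klrb1c and Klrd1) and endothelial and stromal markers to 132 to 145 and 184 to 203 CPM (1 of 8 lower, Pecam1). Pecam1 carried this sum at 115 and 178 CPM, 6 of the 8 had positive log2 fold changes (median 0.69), and without it, again chosen after the values were seen, the sums were 20.5 to 28.2 CPM in aged and 11.9 to 19.4 CPM in young libraries. Dendritic cell markers summed to 119 to 226 and 111 to 156 CPM (2 of 8 lower, Clec9a and Siglech, and 1 higher, Zbtb46, with a median log2 fold change of −0.41). B cell markers summed to 930 to 1750 and 1410 to 2190 CPM, with 6 of 8 log2 fold changes negative (median −0.45) and 0 called by edgeR (3 lower and 0 higher at an unadjusted p under 0.05). Neutrophil markers summed to 682 to 5306 CPM in aged and 276 to 955 CPM in young libraries, with 4 of 10 higher (S100a8, S100a9, Retnlg, Cxcr2). Of these 10, 9 had positive log2 fold changes (median 2.03), and 9 were higher and 0 lower at an unadjusted p under 0.05 in edgeR. Markers in brackets that do not define a cell type were named after their values were seen. No defining marker of these types was at 0, and their part in the results was not tested.

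Gene counts were 10734234 to 11244060 per aged library and 12039894 to 13649310 per young library. With all libraries thinned to the smallest total, 7 of the 10 genes were again lower. Mitochondrial genes took 5.08% to 10.7% of counts in aged and 2.63% to 3.23% in young libraries, haemoglobin genes 1.27% to 13.1% and 1.24% to 10.4%, and immunoglobulin genes 1.78% to 2.6% and 0.618% to 2.93%. With these 3 families left out before scaling, the same 7 genes were called lower.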

How the data were processed

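RNA-sequencing libraries of splenic CD4+CD25+ cells (3 aged, 4 young) were made with a SMART-Seq kit, without molecular identifiers, so that depth and detection limits cover counting error only (3 counts are 0.22 to 0.279 CPM). The authors deposited raw read counts per Ensembl gene for each library and a table of normalized signal values, which were checked to equal the counts divided by a constant per library. The authors' log2 fold change with its error, p-value and test score columns in that table, which the authors computed before they deposited it, were not used. Processing notes name mm10; the aligner and annotation are not given in the sources used here. Reads on no or several genes (13.1% to 20.9%) were left out.

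Counts were tested by the quasi-likelihood method of edgeR 4.0.16 (R 4.3.3) with TMM factors, filterByExpr, no covariate and Benjamini-Hochberg adjustment over 13904 genes, checked on simulated data. Fold changes have 95% intervals and CPM use TMM factors. Within-library ratios (0.5 added to counts) were tested by exact permutation. Coordinates are from GENCODE M21 (GRCm38) and promoters from RefSeq GRCm38.p6, in which 5 of the 10 genes were matched outside chromosome 18.

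The members, the lists and the rule for named genes were chosen with earlier results of these data known. Named were all 10 members, up to 4 called genes of each pathway list and its most abundant gene not called, defining markers, and for Tgfb1 and Lrrc32 the 3 genes most correlated with each. Alternatives were DESeq2 1.42.0, limma 3.58.1 (voom, trend with prior count 2, and on log2 of deposited values plus 1), RLE or library size scaling, scaling to T cell markers, 3 abundant gene families left out, no filter or at least 10 counts in every library, removal of GC content and length trends, a replicate block, each library left out, and a limit of 0.5 on the absolute log2 fold change. Scaling to Foxp3, thinning, and marker sums without Itgb3 or Pecam1 were added after the data were seen.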

Additional observations from a re-analysis of the deposited data

How the results depend on the processing

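Against 7 members called lower, 6 to 8 were called lower under each alternative of tool, scaling or filter and 0 higher. DESeq2 added Smad4, library size only lost Smad2, and Tgfbr1 was lost without a filter and when scaled to T cell markers or Foxp3. The count was 4 when a log2 change of 0.5 in size was also required and 2 to 7 without 1 library. Whether replicate numbers pair the samples is not given in the sources used here. In departures from the mean of their age, same-numbered libraries had correlations of −0.0915, −0.292 and −0.138. Such correlations cannot show whether the libraries were handled together. Young replicate 4 has no aged library of its number, and a replicate block leaves few degrees of freedom. With the replicate number as a block, alone or with GC content and length trends removed, 0 members were called lower, as were 0 other pathway genes, and 2 pathway genes were called higher. The log2 fold changes with the block alone were −0.71 for Tgfb1, −1.12 for Lrrc32, −0.43 for Tgfbr1, −0.54 for Tgfbr2, −0.53 for Smad2, −0.55 for Smad7 and −0.47 for Ski, each within 0.1 of the value without it or lower. With that block 292 of all genes were called, and 284 with the trends removed as well, against 2327 without it. The 8 pathway genes called higher were 12 by DESeq2, 6 scaled to Foxp3 and 5 to 9 without 1 library. The 4 called lower were 12 by DESeq2, 8 with GC content and length trends removed, 8 scaled to Foxp3, 1 with the fold limit of 0.5 and 2 to 11 without 1 library (11 without aged replicate 1). The cause was not tested.

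Over all genes, 3804 were called by DESeq2 (with a local dispersion fit), 1462 scaled to Foxp3 and 1237 to 3058 without 1 library. Calls split into 1362 higher and 965 lower, but into 1203 and 1483 with GC content and length trends removed and 571 and 891 scaled to Foxp3, which moved the median of all genes to a log2 fold change of −0.18.

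Values near 0 changed sign, and so did that of Usp15 (log2 fold change 0.26). Nrp1 (log2 fold change 0.05) was at −0.018 with library size only, −0.0061 scaled to T cell markers, −0.065 with the block, −0.038 with the block and trends removed, −0.13 scaled to Foxp3 and −0.067 to 0.15 without 1 library. Wwp2 (0.02) was at −0.017 on deposited values, −0.061 with library size only, −0.071 scaled to T cell markers, −0.0070 without a filter, −0.16 scaled to Foxp3 and −0.10 to 0.15 without 1 library. Tab2 was at 0.0090 with at least 10 counts in every library and at −0.032 to 0.048 without 1 library. Without 1 library, Usp15 ranged from −0.19 to 0.50, Smad3 from −0.10 to 0.058 and Tgfbr3 from −0.14 to 0.036. None of these was called.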

Other observations

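Across the 7 libraries, the log2 CPM of most members moved together, as a description over points that share age and depth. Lrrc32 and Ski had a Pearson r of 0.975, Tgfbr2 and Smad7 of 0.984, and Tgfbr2 and Smad2 of 0.978. Values were lower for Smad3, with r from −0.325 (Tgfbr3) to 0.447 (Smad4), and for Tgfbr3, with r of at most 0.548 (Tgfbr1). Similar genes were sought among 5611 genes averaging at least 5 log2 CPM, a number that counts members, which were left out of the ranking. The genes most like Tgfb1 were Actg1, a cytoplasmic actin (r = 0.9915), Eno3, a glycolytic enolase (r = 0.9894), and Sbk1, a kinase (r = 0.9876). Those most like Lrrc32 were Stk4, a kinase of the Hippo pathway (r = 0.9926), Mllt1, a subunit of elongation complexes (r = 0.9908), and Bcl2l11, which encodes the pro-apoptotic protein BIM (r = 0.9904). Sbk1, Eno3, Stk4, Mllt1 and Bcl2l11 were lower in aged Tregs, by log2 fold changes of −1.28, −0.69, −0.44, −0.58 and −0.90, and Actg1 was not called (edgeR adjusted p = 0.415).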
